A study of Homo sapiens with 6 samples.

Results

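Ribosomal protein pseudogenes with signal are copies of ribosomal protein genes whose transcripts reached a mean of at least 2 TPM (a level per transcript length, scaled to a fixed total in each library) over the 6 libraries of this series. They were chosen by symbol and by that mean level, after transcript TPM had been summed per Ensembl gene ID. Of 63677 genes, 926 had a symbol of this form, 586 of these were above 0 in at least 1 library, and 46 reached the threshold. A threshold of 1 TPM would have kept 100 genes, and a threshold of 5 TPM 19 genes. One of the 46, RPS19BP1, meets the symbol pattern but is a protein-coding gene for an RPS19-binding protein, and its values are given apart. RPL23AP82 and RPL23AP64 each stood under 2 gene IDs with identical values, so the 46 IDs comprised 43 distinct pseudogenes of 29 parent genes.

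The libraries were made from KMS27, an established human multiple myeloma cell line. HA-TAZ libraries, 3 in number, came from KMS27 cells overexpressing HA-TAZ, the coactivator TAZ (gene WWTR1) with an HA peptide tag, and the 3 control libraries from wild type KMS27 cells, with no other treatment named for either group in the labels. The promoter, vector and clonality of the HA-TAZ cells are not given in the sources used here. The deposited control columns carry the name scr, which is in no label. Sample titles of this group include HA, and whether these cells were untreated or carried a tag or other control is not given in the sources used here. By elimination, since the other 3 columns name TAZ, they stand here for wild type and are called control a, b and c. Nothing in the labels says that libraries of a group came from separate cultures, so p-values measure only the spread between these libraries, which may be technical.

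The deposited TPM of WWTR1 was 293, 306 and 293 with HA-TAZ, and 2.69, 2.22 and 1.69 in controls a, b and c. All 10 plasma cell markers examined reached 1 TPM, while no marker of T, B, erythroid or epithelial cells did, and 1 of 3 myeloid and 2 of 3 fibroblast markers did (CSF1R at 1.68, COL1A1 at 1.42 and DCN at 2.29 TPM). The summed plasma cell markers were lower in HA-TAZ libraries (2825 to 3262 deposited TPM) than in controls (4308 to 4877). JCHAIN, a chain of secreted antibodies, made up most of that sum (2234 to 2618 against 3617 to 4082), while SLAMF7 was higher in every HA-TAZ library (6.55 to 7.78 against 3.50 to 4.51) and SDC1 and POU2AF1 overlapped. All of these marker values are deposited TPM. The scaling described below raises values of the HA-TAZ libraries and lowers those of the controls. The size of the marker differences, and which markers overlap, therefore depend on the unit. The part of the marker differences in the results below was not tested. In bulk RNA, fewer cells of a type and less RNA per cell cannot be told apart. The deposited files give no total count per library, but the authors' deposited table holds a mean per transcript that was read as the natural log of estimated counts plus 0.5, the default of their tool and not stated. On that reading, the most abundant transcript of each of the 43 pseudogenes had from 4.71 to 7062 estimated counts per library in the authors' deposited table, with a median of 51.1. RPL38P3, RPL39P36, RPL39P6, RPS11P5, RPS23P5 and RPS29P22 had fewer than 10, so their values rest on few reads. TPM was divided by a scaling factor per library (median of ratios), which was 0.866, 0.967 and 0.890 for the HA-TAZ libraries and 1.21, 1.09 and 1.06 for controls a, b and c. Levels below are scaled TPM unless deposited TPM is named. The choice matters here, because the median log2 fold change over all 22651 genes tested was −0.025 after scaling and −0.27 in TPM as deposited.

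Ribosomal proteins form the large subunit (RPL genes) and the small subunit (RPS genes) of the ribosome, and their mRNAs are among the most abundant of a cell. Abundant mRNAs are sometimes reverse-transcribed and inserted elsewhere in the genome, which leaves processed pseudogenes, intronless copies that carry no promoter of their own and gather mutations over time. A read from such a copy, or from its parent mRNA, can match both where the sequences are still alike. The libraries were made from total RNA after removal of ribosomal RNA, and such libraries also hold unspliced RNA, in which introns and any pseudogene lying in them are present.

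The copies differ in how far they have drifted from the parent mRNA, and the following stretches show near copies beside more diverged ones. They were read from GENCODE release 29 transcripts (GRCh38), those of the pseudogenes with the same transcript ID and version as in the deposited table, whereas the submitters' processing notes name GRCh37. Each is 75 bases of the pseudogene transcript above the parent's coding sequence it aligns to, 5′ to 3′, with the bases of the copy that differ from the parent in capitals. RPL13P12 and RPS2P5 are near copies at the start of the coding sequence, with 1 and 2 differences.
RPL13P12: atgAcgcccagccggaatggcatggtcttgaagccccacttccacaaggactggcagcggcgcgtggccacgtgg
RPL13: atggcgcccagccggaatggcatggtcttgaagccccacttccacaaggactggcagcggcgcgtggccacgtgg
RPS2P5: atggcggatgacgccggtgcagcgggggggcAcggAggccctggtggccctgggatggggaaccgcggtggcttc
RPS2: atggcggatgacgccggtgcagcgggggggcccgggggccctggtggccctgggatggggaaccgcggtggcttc

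RPS15AP10, lower in HA-TAZ libraries in the tests below, is more diverged, with 11 differences over coding bases 72 to 146.
RPS15AP10: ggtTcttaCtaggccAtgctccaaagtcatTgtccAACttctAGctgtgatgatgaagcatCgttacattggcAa
RPS15A: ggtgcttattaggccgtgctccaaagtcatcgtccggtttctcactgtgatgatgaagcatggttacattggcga

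The 4 copies of RPL39 share one parent and could be set side by side over its coding bases 71 to 145. They differ from it at 3 (RPL39P5), 5 (RPL39P6), 7 (RPL39P26) and 6 (RPL39P36) of the 75 bases.
RPL39P5: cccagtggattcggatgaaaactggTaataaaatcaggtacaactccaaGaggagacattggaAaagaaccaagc
RPL39P6: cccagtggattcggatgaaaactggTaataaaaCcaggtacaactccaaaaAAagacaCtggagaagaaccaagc
RPL39P26: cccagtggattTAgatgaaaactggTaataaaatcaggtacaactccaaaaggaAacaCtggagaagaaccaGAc
RPL39P36: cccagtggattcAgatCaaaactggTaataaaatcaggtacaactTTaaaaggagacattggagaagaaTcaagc
RPL39: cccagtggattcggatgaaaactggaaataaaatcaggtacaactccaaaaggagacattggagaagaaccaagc

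Sequences of the same transcript version were found for 35 of the 46 gene IDs, all of them pseudogenes. RPL23AP82 and RPL32P3 are annotated there as unprocessed, not as processed, pseudogenes. Over the 31 copies that aligned to the parent over at least 90% of their length, identity ranged from 76.0% to 99.7%, with a median of 89.9%. For 27 copies at least 90% of the parent's coding sequence could be aligned. Of these, 8 held a premature stop codon, 12 a gap that changes the reading frame, and 16 either of them. The 11 with neither included RPL7P9, RPLP0P6, RPL13P12, RPS2P5 and RPS3AP6. RPL39P36 and RPL39P5 were also among the 11, so the frame was open in copies at both ends of the fold changes described below.

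How far reads of a copy can be told from reads of other genes was described by its 31-base words. This is a sequence property, computed over GENCODE transcripts, and the word length of the authors' own index is not given in the sources used here. A single transcript stood for each copy, while levels and fold changes are of the whole gene. For RPS26P6, RPL32P3 and RPL23AP82 it was not the most abundant. It held 1.22 of 2.65, 2.55 of 13.2 and 0.947 of 3.73 deposited TPM. The median copy shared 15.8% of its words with transcripts of other genes, within a range from 0% to 99.4%. RPS26P6 (99.4%), RPL7P9 (91.6%), RPS2P5 (88.3%), RPS3AP6 (87.5%) and RPS27P29 (78.4%) shared most, followed by RPLP0P6 and RPS26P31 (68.9%). RPL23AP82 shared 66.3%, but 0.964% with RPL23A itself, to which 17.4% of its transcript aligned. RPS17P13, RPS16P5 and RPS23P5 shared none, RPS12P20 0.286%, RPS3AP3 0.472% and RPS4XP5 1.53%. For RPL41P1, RPL9P8, RPS2P46, RPL21P75, RPL21P28 and RPL7AP6 no transcript sequence was used.

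RPL41P1, RPL9P8 and RPS2P46 together held 68.7% of the summed TPM of the 46 genes. RPL41P1, a copy of the gene for a very small protein of the large subunit, was at 375, 264 and 243 scaled TPM in the HA-TAZ libraries and 439, 211 and 318 in controls a, b and c. The controls alone spanned the whole HA-TAZ range, and the log2 fold change of −0.10 ± 0.30 (SE) was not called (limma, Benjamini-Hochberg adjusted p = 0.848). RPL9P8 was at 243, 228 and 223 in HA-TAZ libraries and at 142, 190 and 205 in controls. Every HA-TAZ library was above every control, but the difference was not called (log2 fold change 0.38 ± 0.14, limma adjusted p = 0.131). The 6 values of RPL9P8 were identical to those of another gene ID, listed under the symbol UBE2Q2P6. RPS2P46 was at 177, 161 and 162 against 109, 141 and 138, also without overlap and not called (0.37 ± 0.11, limma adjusted p = 0.0903).

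The levels then dropped quickly. RPS2P5, a further copy of the small subunit gene RPS2, averaged 41.7 deposited TPM over the 6 libraries and RPL21P75, a copy of the large subunit gene RPL21, 40.6. RPL7P9, RPS23P5, RPL32P3 and RPL39P5 lay between 10.5 and 15.6, and the median of the 43 pseudogenes was 3.73 TPM. TPM is a level per length, so a short transcript can reach such a level on few reads. RPS23P5 (103 bases) and RPL39P5 (151 bases) had 9.21 and 18.6 estimated counts per library in the authors' deposited table. RPL7P9 (747 bases) had 559. Parent genes stood far higher in most cases, with RPL41 at 1262, RPS2 at 1196, RPL39 at 827 and RPL23A at 602 TPM. RPL21 at 78.9 TPM and RPS26 at 13.7 TPM were the exceptions, so that RPL21P75 reached 53.6% ± 2.62 (SD, n = 3) of its parent in HA-TAZ libraries and 49.7% ± 10.1 in controls.

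**Figure D1:**
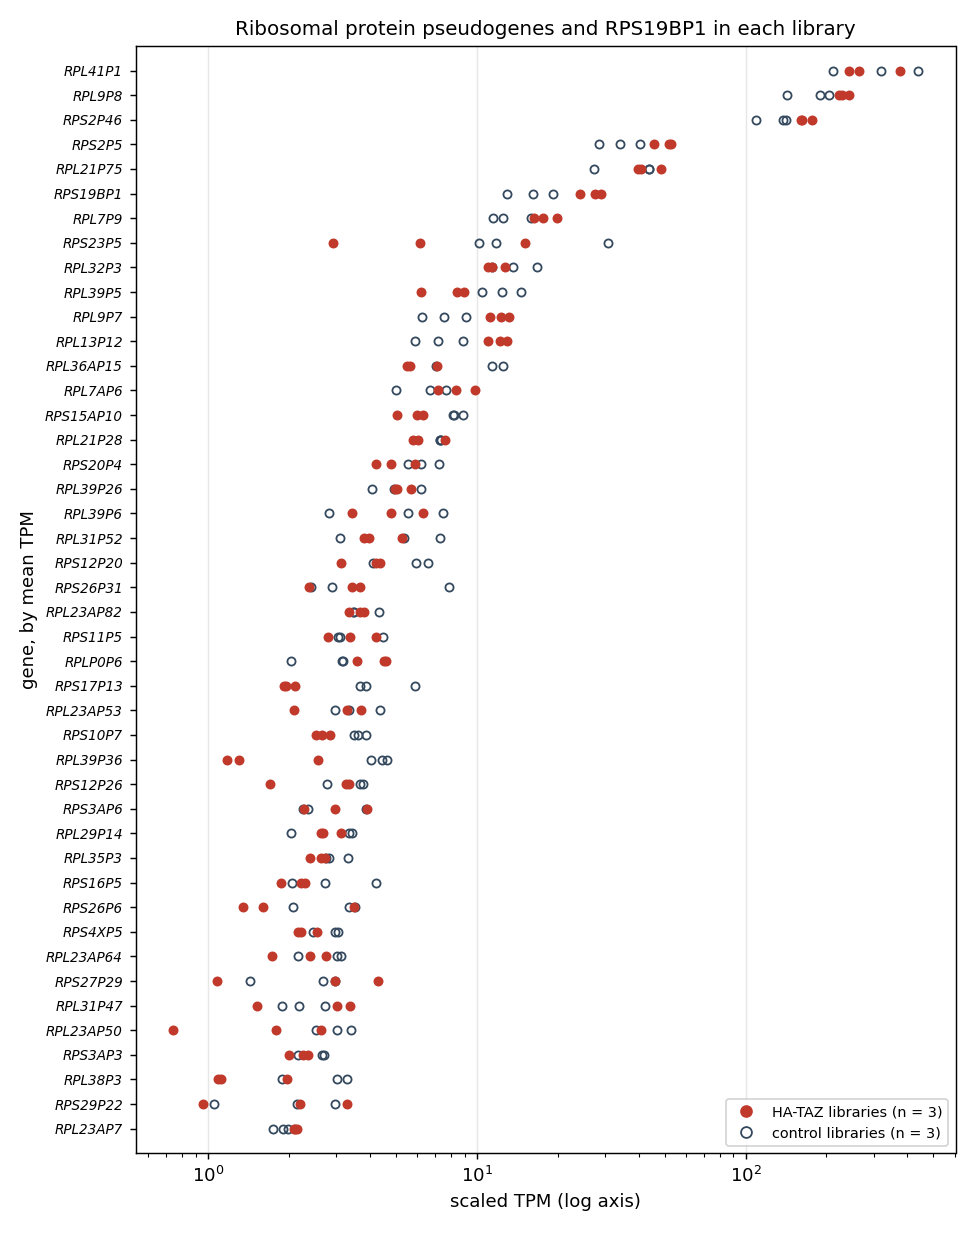
Scaled TPM (log axis) of the 43 pseudogenes and RPS19BP1, ordered by mean TPM, with a filled point for each HA-TAZ library and an open point for each control (n = 3 each). RPL41P1, RPL9P8 and RPS2P46 stand apart at the top, and points of both groups overlap for 29 of the 43 pseudogenes.

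Over the whole list, more pseudogenes had lower than higher values in HA-TAZ libraries, but few passed the test and the excess was in the low genes. In the fit over all 22651 genes (limma, Benjamini-Hochberg adjusted p under 0.05), 4.67% of genes were called higher and 2.63% lower, 7.29% in all. Of the 43 pseudogenes none was called higher and 3 were called lower. Their log2 fold changes were positive for 15 and negative for 28, with a median of −0.15, against −0.025 over all genes and −0.11 over the 5459 genes tested between 2 and 5 TPM. The 18 pseudogenes at a mean of at least 5 TPM had 9 positive and 9 negative values (median −0.0025). The 25 below it had 6 and 19 (median −0.19). The 18 include short transcripts with few reads. RPS23P5, RPL39P6 and RPL39P26 had 9.21, 8.97 and 10.8 estimated counts per library in the authors' deposited table. When only genes at a mean of at least 5 TPM were tested, the median of the 19 gene IDs of the list, RPS19BP1 included, was 0.056. In TPM as deposited, without scaling, the median was −0.40. On that scale 1 of the 46 gene IDs (RPS19BP1) was called higher and 8 lower, against 1.15% and 13.5% of all genes. The 8 were RPL39P36, RPS17P13, RPS15AP10, RPL39P5, RPL36AP15, RPL21P28, RPS20P4 and RPS10P7. HA-TAZ libraries lay above all controls for 8 pseudogenes and below all controls for 6, where 20.2% and 18.3% of all genes did so. The other 29 overlapped. At an unadjusted p under 0.05 (limma), 7 were higher and 7 lower, against 16.6% and 14.1% of all genes.

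**Figure D2:**
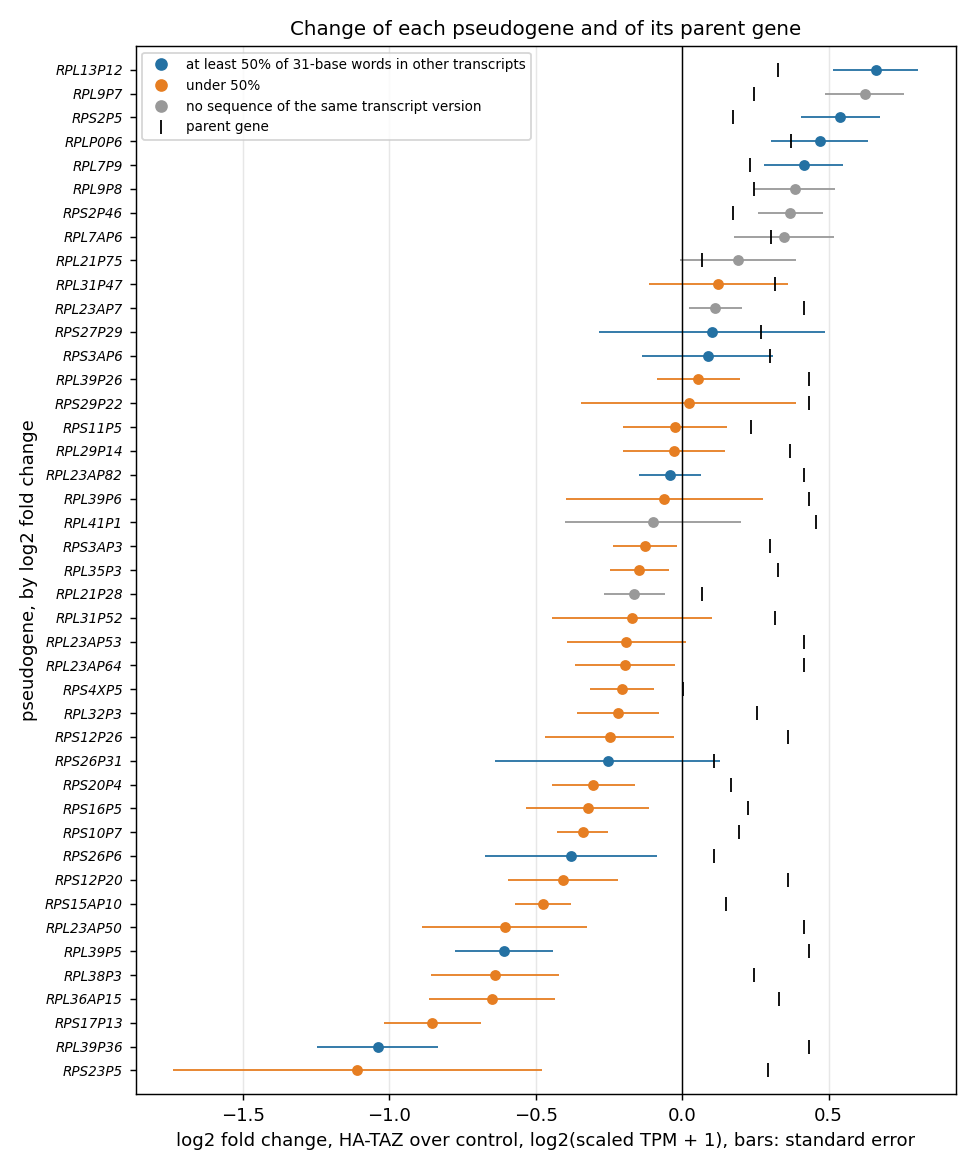
Log2 fold change of each of the 43 pseudogenes (point, with its standard error) and of its parent gene (tick), HA-TAZ over control on the log2(scaled TPM + 1) scale, coloured by the share of 31-base words found in transcripts of other genes. No tick is drawn for RPS17P13. The parent ticks drawn are at or above 0, while 28 of the 43 pseudogene points are below 0.

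The 3 pseudogenes that fell were RPL39P36, RPS17P13 and RPS15AP10. RPL39P36, a copy of the large subunit gene RPL39, was at 2.57, 1.30 and 1.18 scaled TPM in HA-TAZ libraries and at 4.04, 4.65 and 4.44 in controls. The highest HA-TAZ library was below the lowest control, and the mean fell from 4.38 ± 0.308 to 1.68 ± 0.769 (SD, n = 3 each), a log2 fold change of −1.04 ± 0.21 (limma adjusted p = 0.0444). These levels correspond to only 5.49 estimated counts per library in the authors' deposited table, where the effect of −0.911 had an SE of 0.760 (q-value 0.633). Because 1 was added before taking logs, fold changes of such low genes are understated: the ratio of the means was 0.384.

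RPS17P13, a pseudogene of a small subunit gene, was at 1.95, 2.11 and 1.91 in HA-TAZ libraries and at 5.88, 3.87 and 3.69 in controls. It was close to 2 in every HA-TAZ library and higher in each control, and it fell by 0.85 on the log2 scale (SE 0.17, limma adjusted p = 0.0430, ratio of means 0.444). RPS15AP10, a copy of the small subunit gene RPS15A, was at 5.98, 5.05 and 6.33 against 8.90, 8.12 and 8.22. Its groups did not overlap and it fell by 0.48 on the log2 scale (SE 0.10, limma adjusted p = 0.0455). It was also called lower when only genes at a mean of at least 5 TPM were tested (adjusted p = 0.0343), where 5.76% of all genes were. All 3 adjusted p-values are near the threshold. The calls of RPS17P13 and RPS15AP10 were lost when any library was left out, with limma adjusted p up to 0.136 and 0.133. That of RPL39P36 was lost when any library but HA-TAZ 1 was left out, with adjusted p up to 0.113. The direction held in each of these fits.

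RPS19BP1, the protein-coding gene in the list, rose. It was at 27.5, 24.2 and 28.98 scaled TPM in HA-TAZ libraries and at 12.9, 16.2 and 19.2 in controls. The groups did not overlap, and the log2 fold change was 0.72 ± 0.15 (limma adjusted p = 0.0474), a call that was also lost when any library was left out (adjusted p up to 0.144).

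Beside RPL9P8 and RPS2P46, 5 pseudogenes lay above all controls with log2 fold changes of 0.42 to 0.66, none of them called over all genes tested. RPL23AP7, at the threshold of the list, lay above with 0.11 ± 0.09. RPL13P12, a copy of the large subunit gene RPL13, was at 10.96, 12.2 and 13.0 in HA-TAZ libraries and at 5.89, 7.19 and 8.87 in controls (0.66 ± 0.15, limma adjusted p = 0.0523). RPL9P7 was at 12.3, 11.2 and 13.2 against 6.28, 7.53 and 9.08 (0.62 ± 0.13, limma adjusted p = 0.0509). RPS2P5 was at 51.7, 45.7 and 52.8 against 28.5, 34.1 and 40.6 (0.54 ± 0.13, limma adjusted p = 0.0656). In each of the 3, control a was the lowest library. These were called higher when only genes with a mean of at least 5 TPM were tested (limma adjusted p = 0.0347, 0.0335 and 0.0434), where 12% of all genes were called higher. RPLP0P6, a copy of the gene for the stalk protein P0, had 4.51, 3.57 and 4.58 against 2.04, 3.18 and 3.16, and RPL7P9 17.7, 19.9 and 16.4 against 11.5, 15.9 and 12.5. Neither was called (0.47 ± 0.16 and 0.42 ± 0.13, limma adjusted p = 0.123 and 0.106).

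At the other end, RPS23P5 had the lowest log2 fold change and also the widest spread. In the authors' deposited table it had 9.21 estimated counts per library, and RPL38P3, also given here, 7.87. RPS23P5 was at 6.16, 2.92 and 15.2 scaled TPM in HA-TAZ libraries and at 11.7, 10.2 and 30.9 in controls. HA-TAZ 3 was above controls a and b, and the log2 fold change of −1.11 ± 0.63 was not called (limma adjusted p = 0.285). RPL36AP15 (7.08, 5.66 and 5.51 against 11.4, 7.05 and 12.5), RPL38P3 (1.12, 1.09 and 1.96 against 3.02, 3.28 and 1.89) and RPL23AP50 (0.740, 1.79 and 2.64 against 3.40, 3.01 and 2.52) each overlapped in 1 library of each group. Their log2 fold changes were −0.65 ± 0.22, −0.64 ± 0.22 and −0.61 ± 0.28, and none was called (limma adjusted p = 0.112, 0.116 and 0.206). RPS10P7 (2.53, 2.66 and 2.84 against 3.61, 3.49 and 3.86) and RPL35P3 (2.39, 2.62 and 2.72 against 3.32, 2.76 and 2.81) lay below all controls without being called (−0.34 ± 0.09 and −0.15 ± 0.10, limma adjusted p = 0.068 and 0.368).

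The 4 copies of RPL39 did not move alike. RPL39P36 fell, as given above, and RPL39P5 was lower in every HA-TAZ library (6.22, 8.94 and 8.44) than in any control (10.5, 12.4 and 14.5), at −0.61 ± 0.17, which was not called after scaling (limma adjusted p = 0.0777) and was called in TPM as deposited (limma adjusted p = 0.0355). RPL39P26 was at 4.96, 5.07 and 5.71 against 4.91, 4.09 and 6.17, and RPL39P6 at 6.32, 4.78 and 3.43 against 5.56, 7.496 and 2.82. Both overlapped, with log2 fold changes of 0.06 ± 0.14 and −0.06 ± 0.34 (limma adjusted p = 0.815 and 0.919). The difference between the 4 copies was not tested. RPL39P36 and RPL39P5 shared 54.0% and 53.7% of their words with transcripts of other genes, but 13.5% and 27.3% with those of RPL39 itself. They had the lowest log2 fold changes among the copies that shared at least 50%. The stretches printed above show 6 and 3 differences from RPL39.

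The parent genes were on the higher side. Each of the 29 parents had a positive log2 fold change, with a median of 0.27, and 22 lay above all controls (20.2% of all genes did), although none was called. Over the 79 cytosolic ribosomal protein genes 75 were positive, with a median of 0.29, and 3 were called higher, among them RPL36 of the large subunit (0.44) and RPS15 of the small subunit (0.38, limma adjusted p = 0.0497 and 0.0485). Over all genes 4.67% were called higher, so in this fit these 3 of 79 do not stand above that share. With only genes at a mean of at least 5 TPM tested, 22 of the 79 were called higher, where 12% of all genes were. In scaled TPM 60 of the 79 lay above all controls, where 20.2% of all genes did. These differences depended on the scaling, since the median over the 79 genes was −0.012 in TPM as deposited, with none called. Across the 43 pseudogenes the log2 fold change of the copy and that of its parent showed almost no correlation (Pearson r −0.074, Spearman rho −0.0069, n = 43 pseudogenes, several of which share a parent).

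A ratio within a library does not depend on the scaling. RPL39P36 was at 0.259%, 0.142% and 0.124% of its parent in HA-TAZ libraries and at 0.691%, 0.633% and 0.544% in controls. RPS15AP10 was at 0.447%, 0.414% and 0.545% against 0.929%, 0.690% and 0.668%. In both, all HA-TAZ libraries were below all controls. Over the 43 pseudogenes this held for 16, while 2, RPL13P12 and RPL9P7, lay above all controls and 25 overlapped. Among the 16 were RPL23AP53, RPS10P7 and RPL23AP82, whose transcripts aligned to the parent over 4.05%, 24.9% and 17.4% of their length. For these, the ratio sets mostly unlike sequence beside the parent. As background, 40.4% of all genes were below all controls and 5.4% above when divided by the summed level of the ribosomal protein genes, so the count of 16 of 43 stands near that background, which has another denominator. RPL13P12 was at 0.930%, 1.14% and 1.16% of RPL13 in HA-TAZ libraries and at 0.783%, 0.747% and 0.909% in controls. RPL9P7 was at 1.20%, 1.17% and 1.43% of RPL9 against 0.829%, 0.971% and 0.987%.

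Counting every copy of a parent at any level, the copies' part of the family total (parent plus copies) was below all controls in 14 of 29 families, overlapped in 15 and was above in none. Beside it stands the 40.4% of all genes that were below all controls, and the 5.4% above, relative to the summed ribosomal protein genes. For RPL39, with 13 copies, it was 2.18% ± 0.217 in HA-TAZ libraries and 3.77% ± 0.438 in controls (SD, n = 3 each). For RPS12, also with 13 copies, it was 2.42% ± 0.392 against 4.37% ± 0.489. RPL23A, which has 7 gene IDs of copies in the list and 41 in all, gave 3.28% ± 0.320 against 4.87% ± 0.367. Copies were counted here by gene ID. RPL23AP82 and RPL23AP64 each entered the RPL23A sum under 2 IDs, which raised both of its shares. The parents RPL36A and RPL7A likewise entered under 2 IDs with identical values, which lowered the shares of their copies. In the families with the most signal on copies the groups overlapped. RPS26 had 41.7% ± 3.23 against 49.8% ± 8.98, RPL21 43.5% ± 1.03 against 43.7% ± 3.21, RPL41 16.7% ± 3.15 against 23.4% ± 9.45, and RPL9 20.3% ± 0.372 against 18.9% ± 1.94.

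**Figure D3:**
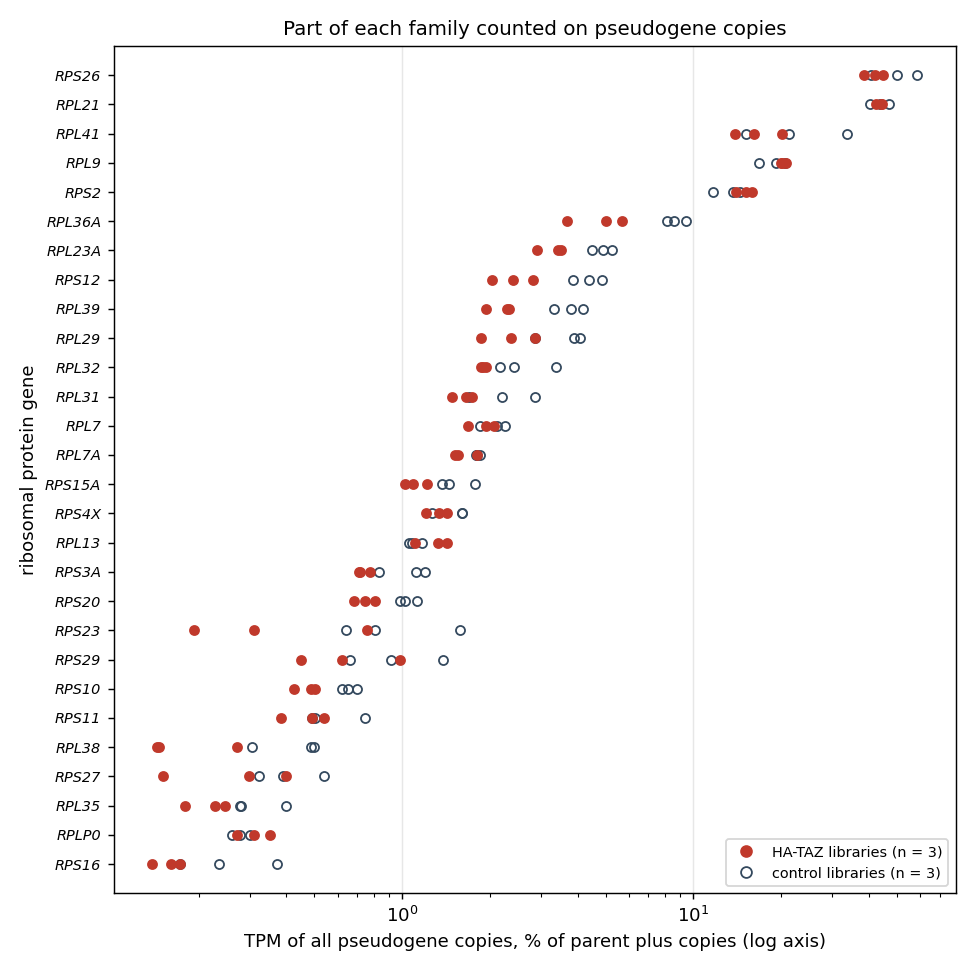
TPM of all pseudogene copies as a percentage of parent plus copies (log axis) in each library, for 28 of the 29 ribosomal protein genes with a copy in the list, filled points HA-TAZ and open points control (n = 3 each). In 13 of the 28 families every HA-TAZ point lies to the left of every control point, and RPS26 and RPL21 stand near 40% to 50%. Gene IDs with identical values are each counted, which raises the points of RPL23A and lowers those of RPL36A and RPL7A.

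The fold changes were then set beside the share of words, as a description without a test. Of the 11 that shared at least 50% of their words, 6 had a positive and 5 a negative log2 fold change, with a median of 0.088, and 4 lay above and 2 below all controls. Of the 24 that shared less than 50%, 3 were positive and 21 negative, with a median of −0.21, and 0 lay above and 4 below all controls. Over all genes 20.2% lay above and 18.3% below all controls. The 521 other processed pseudogenes described below, whose share of words was not computed, had a median of −0.28. Among the 14 that shared under 10%, 12 were negative, with a median of −0.36. The share of words and the log2 fold change had a Pearson r of 0.47 and a Spearman rho of 0.47 over 35 pseudogenes, given as a description, since copies of one parent share sequence and reads. In TPM as deposited the medians were −0.13 for at least 50% and −0.45 for less than 50%.

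The ratio to the parent, which does not depend on the factors, was below all controls in 13 of the 24 copies with less than 50% of words shared and in 3 of the 11 with more, beside the background of 40.4% given above. Of the 8 without a sequence of the same version, 7 overlapped and RPL9P7 was above.

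**Figure D4:**
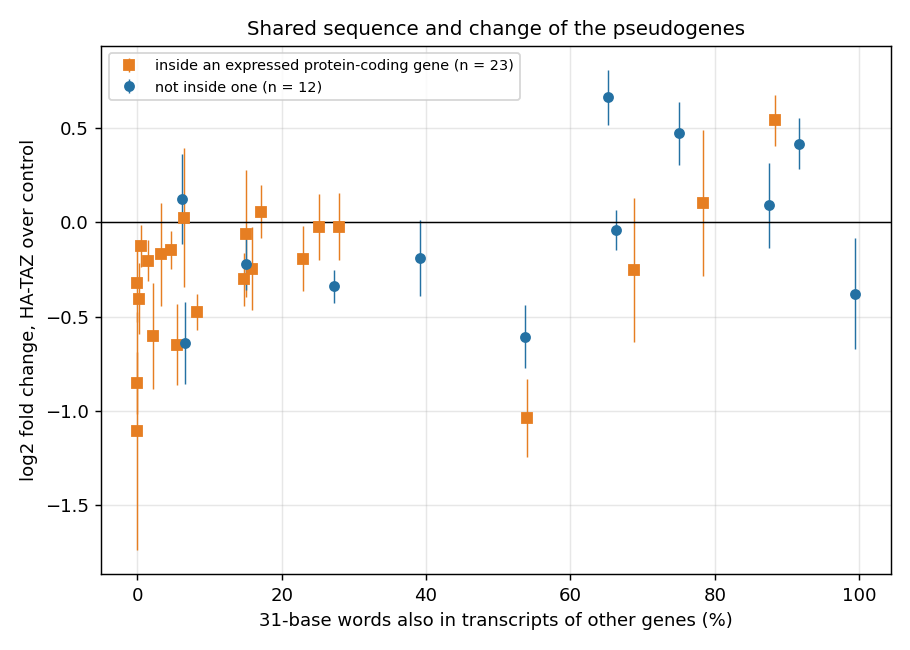
Log2 fold change (HA-TAZ over control, log2(scaled TPM + 1), bars: standard error) against the percentage of 31-base words also found in transcripts of other genes, for 35 pseudogenes, squares inside an expressed protein-coding gene and circles elsewhere. Below 50% of shared words 21 of 24 points are negative, and 4 of the 11 points above it are at 0.4 or more.

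Many of the copies lay inside other genes. Of 42 pseudogenes of the list with a record in GENCODE release 29, 25 (59.5%) lay within a protein-coding gene that was itself at 1 TPM or more, always in an intron, 10 on the same and 15 on the opposite strand. The same held for 173 of 492 copies (35.2%) that were above 0 but under the threshold, and for 15 of 307 (4.89%) that were listed at 0 in every library. The library kit keeps strand, but whether strand was used in the quantification is not given in the sources used here, so signal from a copy and from a host on the opposite strand may not be told apart.

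The 25 intronic copies had 5 positive and 20 negative log2 fold changes, with a median of −0.19, and the 17 not inside such a gene 9 positive and 8 negative, with a median of 0.088. All 3 pseudogenes that fell were intronic. RPL39P36 lies in the zinc finger gene ZNF765 on the same strand, RPS17P13 in ELMO1, which encodes an engulfment and cell motility protein, on the opposite strand, and RPS15AP10 in GPBP1L1 on the same strand. These hosts had log2 fold changes of 0.03, 0.00 and 0.03 (limma adjusted p = 0.828, 0.999 and 0.652). The log2 fold changes of host and copy had a Pearson r of 0.053 and a Spearman rho of 0.065 over the 25 pairs, as a description. Of the 25 hosts, 2 were called lower and 1 higher, where 2.63% and 4.67% of all genes were. FBXO11, which hosts RPL36AP15, and WDPCP, which hosts RPS4XP5, were lower (−0.29 and −0.41, limma adjusted p = 0.0278 and 0.0329). CSNK1A1, host of RPL29P14, was higher (0.25, limma adjusted p = 0.0382). The copies in these hosts had −0.65, −0.21 and −0.03, none called.

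Position and shared sequence overlapped, as 19 of the 24 copies with less than 50% of words shared were intronic, and 4 of the 11 with more. Within the copies in introns of such genes, the 19 with less than 50% had a median of −0.21 with 17 negative, and the 4 others −0.076. Among copies not inside an expressed protein-coding gene, the 5 with less than 50% had a median of −0.22 with 4 negative, and the 7 others 0.088.

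In the authors' deposited table, a Wald test per transcript by sleuth, 93 transcripts of the 46 gene IDs were listed and 71 had statistics. At a q-value under 0.05 there were 7, of which 6 had positive effects, where 4.08% of all transcripts passed with a positive and 1.6% with a negative sign. In the authors' deposited table the effects, on the natural log scale, were 0.420 for RPS2P5, 0.595 for RPS19BP1, 0.538 for RPL13P12, 0.490 for RPLP0P6, 0.487 for RPL9P7 and 0.269 for RPS2P46, with q-values of 0.000365, 0.00145, 0.00440, 0.0247, 0.0265 and 0.0282. The negative one in the authors' deposited table was RPS17P13, at −0.782 with a q-value of 0.00647. RPL39P36 and RPS15AP10 did not have a q-value under 0.05 there.

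The summed level of the 43 pseudogenes was 964 ± 93.8 scaled TPM in HA-TAZ libraries and 907 ± 85.4 in controls (SD, n = 3 each), a difference smaller than the spread. Over all 46 gene IDs the ratio of the means was 1.07 in scaled and 0.867 in deposited TPM, while the 79 ribosomal protein genes gave 1.20 and 0.976. Without RPL41P1, the other 42 pseudogenes summed to 670 ± 25.8 in HA-TAZ libraries and 584 ± 72.0 in controls. The groups overlapped, with HA-TAZ 2 at 646 and control c at 648. In deposited TPM the order was reversed, at 607 ± 16.0 in HA-TAZ libraries and 650 ± 36.7 in controls.

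The threshold cut through a continuum of levels. Just inside it were RPL23AP7 (2.01 TPM) and RPS29P22 (2.15 TPM), and just outside RPS15AP16 (1.97 TPM) and RPL18AP7 (1.96 TPM). Processed pseudogenes of other genes were described in the same way. Over 521 of them in the annotation at 2 TPM or more, the median log2 fold change was −0.28, with 118 positive and 403 negative, 5 called higher and 23 lower (limma, Benjamini-Hochberg adjusted p under 0.05, against 4.67% and 2.63% of all genes).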

How the data were processed

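RNA-seq of 6 KMS27 libraries was used. Per the labels' protocols, total RNA was depleted of ribosomal RNA and sequenced from both ends with a stranded kit. The submitters' processing notes name kallisto 0.46.0, sleuth 0.30.0 and GRCh37, with no settings. The authors deposited TPM for 215170 transcripts and a sleuth table with effects on the natural log (ln) scale, standard errors, p-values and q-values per transcript, per the file headers. Estimated counts were read from its mean per transcript on the natural log scale. Total counts per library are not given in the sources used here.

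TPM was summed per gene with the symbols of that table, divided by median-of-ratios factors over 21512 genes, and tested as log2(scaled TPM + 1) for 22651 genes at a mean of at least 1 TPM with limma 3.58.1 (R 4.3.3, intensity trend, two-sided, Benjamini-Hochberg over all genes, threshold 0.05), after a check on simulated data. With 3 libraries against 3, an exact two-sided permutation test of 1 gene cannot go below 0.1. Sequences, gene types and positions come from GENCODE release 29, matched by versioned transcript ID or gene ID. Copies were aligned to the parent with Biopython 1.88 (match 2, mismatch -3, gap open -5, gap extension -2).

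The members and lists were chosen with earlier results of these data known. Genes were named by rule: those called, the 12 at the highest level, the 6 with the largest change each way, those nearest the threshold, the 6 with the most and the 6 with the fewest shared words, genes with identical values, and their parents and hosts. RPL39P6, RPL39P26, RPL23AP50, RPS10P7, RPL35P3, RPS20P4, RPL21P28 and RPL29P14 lie outside the rule and were chosen after their values were seen, as were the remaining names in lists. Alternatives covered the scaling, pseudocount, filter, variance model and each library left out. Values of 2 ribosomal protein genes are not reported here.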

Additional observations from a re-analysis of the deposited data

How the results depend on the processing

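No paired analysis was possible because the control columns carry the name scr, which is in no label, so their numbers could not be tied to numbered wild type samples.

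The 1652 genes called over all genes tested became 3329 in TPM as deposited, 758 by limma without the intensity trend and 691 without a filter on level, and 118 (without HA-TAZ 1) to 470 (without control c) with 1 library left out. Genes of the list called higher went from 1 to 4 at a mean of at least 5 TPM, and to 0 with factors over protein-coding genes, without the trend, without the filter, without RPS19BP1 and in each fit leaving out 1 library. Those called lower went from 3 to 8 in TPM as deposited, 1 at a mean of at least 5 TPM, 0 without the trend or the filter, and 0 to 1 with 1 library left out. At an unadjusted p under 0.05 (limma), 7 pseudogenes each were higher and lower. The list's median, −0.14, was −0.38 in TPM as deposited, −0.19 with protein-coding factors and −0.15 to −0.063 with 1 library left out. Over the 19 gene IDs at a mean of at least 5 TPM it was 0.056, and −0.0025 over the 18 without RPS19BP1. That filter changes which genes enter the median, not their log2 fold changes. The ratio of summed levels, 1.07, was 0.867 in TPM as deposited. Member transcripts past the q-value threshold in the authors' deposited table went from 7 to 4 at 0.01. The cause of these shifts was not tested.

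Ribosomal protein genes called higher went from 3 to 22 at a mean of at least 5 TPM, where 12% of all genes were called higher. With a pseudocount of 0.1 they were 5. They were 0 in TPM as deposited, with protein-coding factors, without the trend, without the filter and with any library left out. The median of the ribosomal protein genes, 0.29, was −0.012 in TPM as deposited. The 44 genes examined by other pseudogene symbols had a median log2 fold change of −0.20, with 1 called higher and 2 called lower. That symbol pattern also took protein-coding genes, among them RANGAP1, which was called higher, and SETBP1, which was called lower. The 34 genes without protein-coding types had a median of −0.33. UBE2Q2P6, with the same values as RPL9P8, is in the set. The counts called higher and lower became 0 and 14 in TPM as deposited (median −0.44). They were 2 and 1 at a mean of at least 5 TPM (median −0.016). They were 0 and 1 without the trend, without the filter or without protein-coding types, and 0 and 0 to 1 with 1 library left out.

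In TPM as deposited, 7 pseudogenes changed sign, namely RPL21P75 (−0.10), RPL39P26 (−0.20), RPS3AP6 (−0.13), RPS27P29 (−0.11), RPL31P47 (−0.088), RPS29P22 (−0.17) and RPL23AP7 (−0.087). With protein-coding factors, RPL39P26 (−0.0070) and RPS29P22 (−0.026) did. With 1 library left out, the log2 fold change spanned 0 for RPL21P75 (−0.031 to 0.30), RPL23AP82 (−0.087 to 0.042), RPL29P14 (−0.21 to 0.070), RPL31P47 (−0.025 to 0.37), RPL31P52 (−0.44 to 0.061), RPL39P26 (−0.062 to 0.18), RPL39P6 (−0.38 to 0.19), RPL41P1 (−0.37 to 0.15), RPS11P5 (−0.14 to 0.12), RPS26P31 (−0.51 to 0.17), RPS27P29 (−0.19 to 0.49), RPS29P22 (−0.24 to 0.34) and RPS3AP6 (−0.057 to 0.27). The median share of words rose from 15.8% to 36.9% with words of 21 bases.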
